A study of Mus musculus with 4 samples.

Results

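The integrins and laminins were followed as a group of 37 genes among the 19465 genes measured. All genes with symbols beginning Itga, Itgb, Lama, Lamb or Lamc and ending as the chains of these 2 families do were taken, with no use of measured values, which gave 26 integrin chains and 11 laminin chains. The data are Visium spatial transcriptomes of formalin-fixed tissue, in which probe pairs for each gene report RNA at barcoded positions of a slide. The 4 sections came from 2 BALB/c mice, named mouse A and mouse B by rising label number, each giving its primary tumour (Breast tumor in the labels) and its lung 28 days after 100000 4T1 cells, a mouse mammary carcinoma line, were injected into a mammary fat pad at 8 weeks of age. There was thus 1 section for each tissue of each mouse, n = 2 for each tissue, all animals carried tumours, and the lung of an uninjected mouse was not analysed here.

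Integrins are cell-surface receptors made of 1 alpha and 1 beta chain, and laminins are basement membrane trimers of 1 alpha, 1 beta and 1 gamma chain that many integrins bind. The beta2 chain Itgb2 pairs with Itgal, Itgam, Itgax and Itgad on leukocytes, Itga4 and Itgae serve leukocytes with Itgb7, and Itga6 with Itgb4 anchors epithelial cells to laminin in hemidesmosomes. Itgb1 is the shared partner of most chains on epithelial, vascular and connective tissue cells, so its level belongs to no single cell type.

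The sections held 9339 kept spots, those with over 200 detected genes, of 9445 under tissue, and the 106 left out all lay in the primary tumour of mouse A. Unique molecular identifiers (UMIs), counts of captured probe products, summed over kept spots to 13532158 (mouse A) and 10890154 (mouse B) in the primary tumours and to 11122812 and 30240176 in the corresponding lungs. A spot can cover several cells, and in summed spots fewer cells of a type and less RNA per cell cannot be told apart. The labels were checked against marker genes: the summed level of the alveolar list (11 of 12 genes found) was 27.9 and 76.0 counts per 1000000 UMIs (CPM) in the tumours and 13761 and 7777 CPM in the lungs, and that of the carcinoma list (6 of 7 genes found) was 1657, 1726, 113 and 722 CPM in the same order. The neutrophil list stood at 2682 and 11594 CPM in the tumours and 83744 and 33967 CPM in the lungs. All values are given in the order primary tumour A, primary tumour B, lung A, lung B unless stated otherwise.

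Upstream sequences of 3 chains are shown because these chains recur in the leukocyte and laminin results and a window was given for them, which was not so for Itgal and Lama3. Each is the 250 bases before the RefSeq start on the gene's own strand in GRCm38.p6: chr2:79255176-79255425 (plus strand) for Itga4, chr7:128062390-128062639 (plus strand) for Itgam and chr2:180225860-180226109 (minus strand) for Lama5. Capitals mark GGGCGG on either strand, the letters of a GC box.
Itga4: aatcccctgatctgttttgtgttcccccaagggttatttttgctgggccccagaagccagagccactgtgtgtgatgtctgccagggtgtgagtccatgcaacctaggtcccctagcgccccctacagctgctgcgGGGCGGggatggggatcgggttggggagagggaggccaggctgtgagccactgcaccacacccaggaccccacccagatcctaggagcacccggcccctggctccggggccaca
Itgam: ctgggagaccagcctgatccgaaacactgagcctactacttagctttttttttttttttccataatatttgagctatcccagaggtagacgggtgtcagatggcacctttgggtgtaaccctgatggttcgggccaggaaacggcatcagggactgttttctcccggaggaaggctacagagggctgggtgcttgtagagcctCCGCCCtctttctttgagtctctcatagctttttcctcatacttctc
Lama5: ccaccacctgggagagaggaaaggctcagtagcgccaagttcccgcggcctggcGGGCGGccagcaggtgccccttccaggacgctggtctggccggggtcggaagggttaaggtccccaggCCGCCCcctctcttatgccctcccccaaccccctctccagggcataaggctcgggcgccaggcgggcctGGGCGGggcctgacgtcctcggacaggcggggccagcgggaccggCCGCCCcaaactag
The Lama5 window is 72.4% G or C and holds GGGCGG 4 times, the Itga4 window is 64.0% G or C and the Itgam window 49.6%, and each of these holds it once. The letters GAGGAA, a core that ETS-family factors such as PU.1 can bind, stand in the Itgam window 2 times, in the Lama5 window 1 time and not in the Itga4 window. Windows were given for 23 of the 37 chains. On either strand GGGCGG was found in 8 of the 23, against 32.7% of all 32851 windows of this length, and GAGGAA in 13 of the 23, against 23.3%. The letters TATAAA were in none of the 23 (12.4% of all windows) and the AP-1 letters TGANTCA in Itgax alone (6.75% of all windows). A chain was counted if any of its windows held the letters, while the percentages are per window, so the counts and percentages are not like for like. The motifs do not overlap in letters, and a match describes the letters only.

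Probes for 1178 olfactory and vomeronasal receptor genes, which these tissues should lack, gave the background. Their 95th percentile was 1.70 CPM in primary tumour A, 19.0 CPM in primary tumour B, 0.539 CPM in lung A and 0.397 CPM in lung B. At or under it lay 10 of the 37 chains in primary tumour A, 18 in primary tumour B and 1 in each lung, so that low levels in primary tumour B were not separable from background. Itgad was the 1 chain at or under it in every section, with 0.296, 4.77, 0 and 0.298 CPM. It was also the 1 chain too low to be tested between tissues.

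The leukocyte chains took a larger share of the integrin UMIs in the lungs than in the tumours of both mice. The 8 leukocyte chains (Itgal, Itgam, Itgax, Itgad, Itgae, Itga4, Itgb2, Itgb7) held 13.8% (95% Clopper-Pearson interval 13.4 to 14.1) of integrin UMIs in primary tumour A and 14.5% (14.1 to 14.9) in primary tumour B. They held 58.2% (57.6 to 58.8) in lung A and 30.8% (30.5 to 31.2) in lung B. The tissues did not overlap and the lungs lay further apart than the tumours. These intervals cover counting error within a section only, and with 2 sections against 2 an exact permutation test, two-sided, cannot give a p below 0.333, so the share was not tested.

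Among single spots with at least 10 integrin UMIs the same order was seen. The median leukocyte share was 13% over 1183 spots of primary tumour A, 12.5% over 499 spots of primary tumour B, 60.0% over 1257 spots of lung A and 35.7% over 2364 spots of lung B. From the 10th to the 90th percentile of spots the share ran from 4.35 to 24.1% in primary tumour A, from 5 to 30.0% in primary tumour B, from 38.9 to 77.8% in lung A and from 11.5 to 66.7% in lung B. Lung B thus held spots like those of both tumours and spots like those of lung A.

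The summed levels of the leukocyte chains had the opposite order to those of the epithelial, stromal and vascular laminin chains. The leukocyte chains summed to 398, 367, 1359 and 734 CPM, and both lungs lay above both tumours. The 6 epithelial chains (Itga2, Itga3, Itga6, Itgb4, Itgb6, Itgb8) summed to 1099, 1017, 292 and 696 CPM, with both lungs below both tumours. The 10 chains of connective tissue, muscle and vessel cells or of broad use, called stromal here, summed to 1336, 1088, 624 and 899 CPM, also without overlap. The 6 laminin chains of vessels and stroma (Lama2, Lama4, Lama5, Lamb1, Lamb2, Lamc1) summed to 1975, 1811, 334 and 899 CPM. In each of these sums lung B lay between lung A and the tumours.

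**Figure D1:**
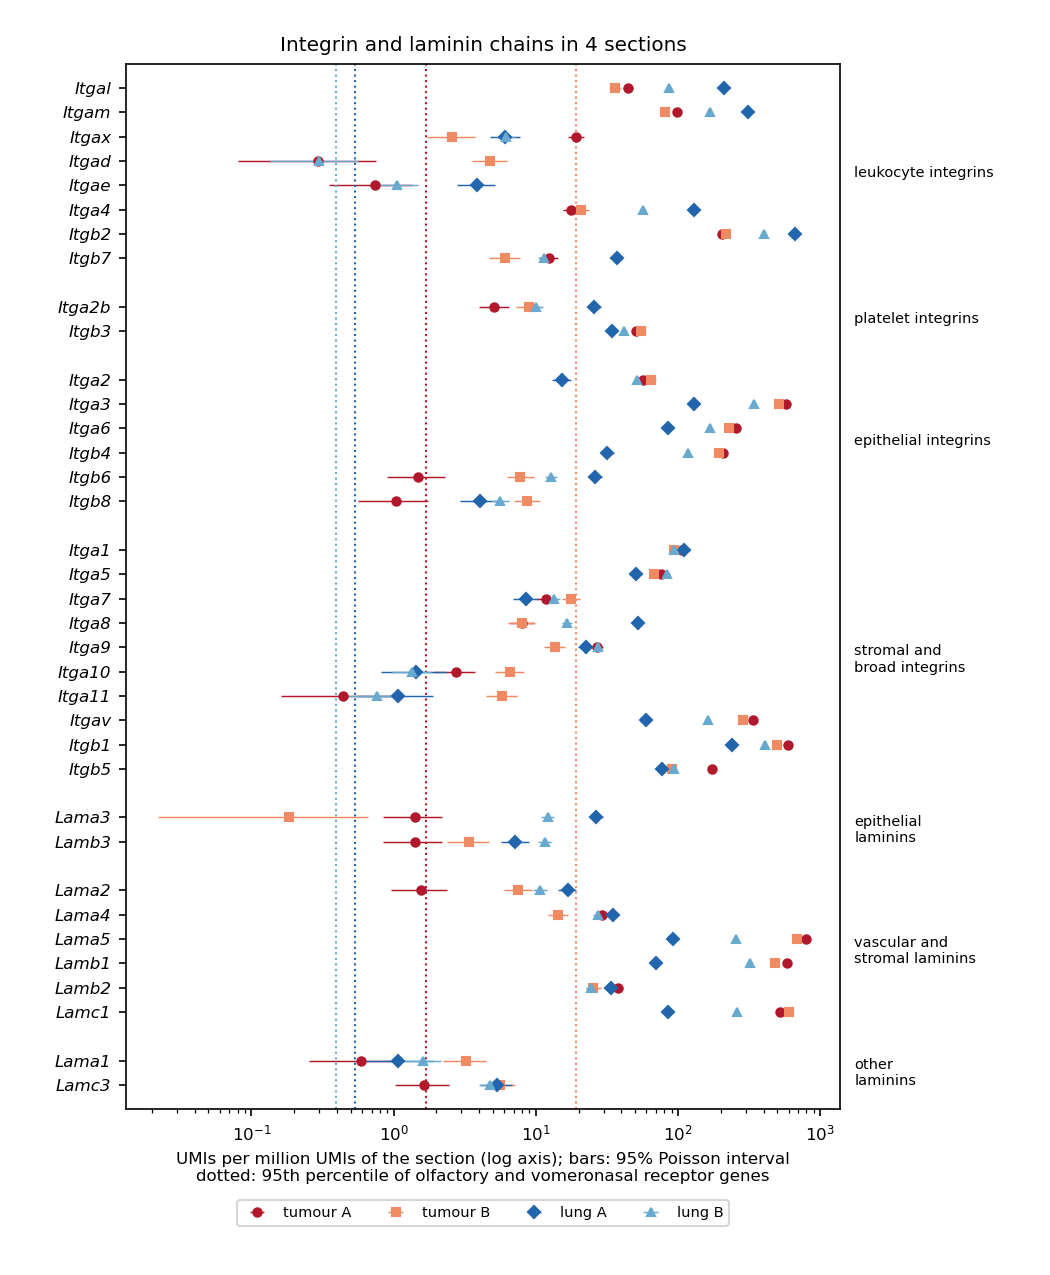
Level of 36 chains in the 4 sections, in CPM on a log axis, with bars for the 95% Poisson interval of the count and dotted lines for the 95th percentile of olfactory and vomeronasal receptor genes in each section. Itgal, Itgam, Itga4 and Itgb2 lie higher in both lungs, Itgb4, Itgav, Lama5, Lamb1 and Lamc1 lie lower, and the low chains of primary tumour B lie under its own line of 19.0 CPM.

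The beta2 integrins carried most of the leukocyte signal. Itgb2 was at 205, 216, 660 and 404 CPM, Itgam, the alpha chain of Mac-1 on neutrophils and macrophages, at 98.4, 81.1, 312 and 168 CPM, and Itgal, the alpha chain of LFA-1 on most leukocytes, at 44.5, 36.0, 210 and 87.1 CPM. Each was higher in both lungs than in both tumours, and lung A lay above lung B. Itga4, which binds VCAM1 and MAdCAM1 with Itgb1 or Itgb7, was at 17.8, 20.8, 129 and 56.6 CPM, and Itgb7 was at 12.3, 6.06, 37.0 and 11.5 CPM, so that Itgb7 in lung B lay within the tumour range. Itgax, the CD11c chain of dendritic cells and some macrophages, went the other way in mouse A, with 19.2, 2.57, 6.11 and 6.18 CPM, and its value in primary tumour B was under that section's background. Itgae, the CD103 chain of intraepithelial T cells, was listed at 0.739, 0, 3.87 and 1.06 CPM. Beside these chains, the T and NK cell list summed to 95.4, 60.5, 117 and 42.7 CPM and the B cell list to 9.39, 39.0, 154 and 23.6 CPM, with 0 of 8 and 0 of 6 genes above background in primary tumour B, and their part in the chains' levels was not tested.

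Spots differed in depth between sections, so spots were also thinned to 1000 UMIs, which left out the shallower spots: 886 of primary tumour A, keeping its 1604 deeper ones, and 56, 10 and 5 of the other sections. After thinning, Itgb2 had a UMI in 17.9, 16.8, 47.7 and 35.4% of spots and Itgam in 9.98, 10.8, 26.9 and 18.5%. Itgal had one in 4.05, 4.97, 19.4 and 10.2% of thinned spots, where the 95th percentile of the receptor genes was 0.374, 4.45, 0.119 and 0.108%. In primary tumour B the thinned share of Itgal was thus close to background, and that of Itga4, at 1.5, 3.24, 11.9 and 6.56%, was under it. Lama5 had a UMI in 55.1, 34.5, 9.19 and 17.4% of thinned spots, the reverse order.

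The laminin-binding and the epithelial chains lay mostly on the tumour side. Itga3, the alpha chain of the laminin receptor alpha3beta1, was at 576, 514, 129 and 341 CPM, Itga6 at 258, 227, 85.3 and 168 CPM and Itgb4, its hemidesmosome partner, at 206, 194, 31.9 and 117 CPM. In all 3 both lungs lay below both tumours and lung A lay lowest. Itga2, a collagen receptor chain, was at 57.1, 64.9, 15.3 and 51.3 CPM. Itgb6, an epithelial chain that activates TGF-beta with Itgav, stood apart from these with 1.48, 7.81, 26.1 and 12.8 CPM, higher in both lungs, and Itgb8 was at 1.03, 8.72, 4.05 and 5.62 CPM, with overlap.

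Of the stromal and broad chains, Itgb1 was at 594, 499, 241 and 408 CPM, Itgav, the alpha chain of the vitronectin receptors, at 337, 285, 59.2 and 161 CPM and Itgb5, one of its partners, at 172, 91.3, 77.2 and 93.5 CPM. Itgb1 and Itgav were lower in both lungs, while Itgb5 overlapped. Itga1, a collagen receptor chain, had nearly level values of 107, 93, 110 and 93.4 CPM, and Itga5, the fibronectin receptor chain, had 76.1, 67.9, 50.9 and 83.9 CPM. Itga8, a nephronectin receptor chain of mesenchymal cells, was at 8.05, 7.99, 52.3 and 16.6 CPM, but its value in primary tumour B was under background. The remaining chains were low: Itga7 at 11.7, 17.7, 8.54 and 13.4 CPM, Itga9 at 26.8, 13.6, 22.6 and 27.2 CPM, Itga10 at 2.73, 6.61, 1.44 and 1.36 CPM, and Itga11 at 0.443, 5.79, 1.08 and 0.761 CPM. The platelet receptor chains were Itga2b at 5.10, 9.0, 25.8 and 9.99 CPM and Itgb3, which also pairs with Itgav, at 50.8, 55.4, 34.3 and 41.8 CPM.

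The 3 chains of laminin-511, a main laminin of epithelial and vascular basement membranes, shared the tumour side. Lama5 was at 799, 684, 92.9 and 255 CPM, Lamb1 at 583, 477, 69.9 and 323 CPM and Lamc1 at 524, 602, 85.7 and 259 CPM, with no overlap between tissues. Lama3, at 1.40, 0.184, 26.6 and 12.1 CPM, and Lamb3, at 1.40, 3.40, 7.19 and 11.5 CPM, both chains of epithelial laminins, lay on the lung side. Of the vascular and muscle alpha chains, Lama4 was at 29.4, 14.4, 35.1 and 27.2 CPM and Lama2 at 1.55, 7.53, 16.7 and 10.7 CPM, and Lamb2 was at 37.9, 25.3, 33.5 and 24.3 CPM. Lama1, the embryonic alpha chain, was at 0.591, 3.21, 1.08 and 1.62 CPM and Lamc3 at 1.63, 5.60, 5.30 and 4.76 CPM.

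Lungs and primary tumours were then compared over the 4 section sums, with all genes fitted together by edgeR's quasi-likelihood test and p-values adjusted by the Benjamini-Hochberg method over 15267 genes. Of the 36 chains tested, 4 were called higher in lung (11.1%), against 6.31% of all genes, and 0 lower, against 1.15%. Without overlap of the tissues, 11 chains (30.6%) were higher in both lungs, against 21.3% of genes, and 12 (33.3%) were lower, against 37.8%, which is near the background. The 4 called chains were Itgal, Itga4, Itga8 and Lama3, and all 4 were higher in the lung of each mouse. Folds in this comparison lie 0.29 (log2) above the plain ratios of CPM because of the normalization, and Itga5, Itgb8 and Lamb2 have opposite signs on the 2 scales.

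Itga4 was called higher in lung by 2.63 (log2 fold, SE 0.50, edgeR adjusted p = 0.0162), and its log2 ratios of CPM within the 2 mice were 2.86 and 1.45. Itgal rose by 2.24 (SE 0.52, edgeR adjusted p = 0.0318), with ratios of 2.24 and 1.27. These genes lie on mm10 at chr2:79255426-79333123 (Itga4) and chr7:127296260-127335138 (Itgal), both on the plus strand. Itga8 rose by 2.47 (SE 0.61, edgeR adjusted p = 0.0409), and Lama3 by 4.88 (SE 0.98, edgeR adjusted p = 0.0195), on 19 and 2 UMIs in the tumours against 296 and 366 in the lungs. In spots with at least 1000 UMIs the calls of Itgal and Itga8 were lost, as they were without primary tumour B, and without lung A those of Itga8 and Lama3, while 8 chains were called without primary tumour A, 4 without primary tumour B, 2 without lung A and 15 without lung B. In mouse B the ratio of the Lama3 levels was 65.9-fold, with a counting interval of 18.1 to 546, over a value that is under background in primary tumour B, as it is in primary tumour A. The neutrophil list differed between tissues in the same direction as the leukocyte chains, as given above, and the alveolar list in the same direction as Lama3, and their part in these results was not tested.

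Several chains with large differences missed the threshold. Itgam had a log2 fold of 1.76 (SE 0.46, edgeR adjusted p = 0.0522), Itgb2 of 1.67 (SE 0.46, adjusted p = 0.0619) and Lama5 of -1.86 (SE 0.50, adjusted p = 0.0546). For Itgb4 the fold was -1.2 (adjusted p = 0.191), for Itgav -1.26 (adjusted p = 0.143), for Lamc1 -1.47 (adjusted p = 0.116) and for Lamb1 -1.23 (adjusted p = 0.247). At an unadjusted p under 0.05 there were 16 chains, and DESeq2 called 10, of which 7 were higher and 3 lower in lung. Over all 15267 genes 3536 were at an unadjusted p under 0.05. Here and below, an excess of chains in such counts was not tested. The split over all genes in DESeq2 is given with the processing alternatives. The median fold was 1.76 for the 7 tested leukocyte chains, -0.66 for the 6 epithelial chains, -0.25 for the 10 stromal chains and -0.52 for the 6 vascular and stromal laminin chains, beside -0.00 over all genes.

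With the mouse as a block, since the labels give tumour and lung of the same animal, 12 chains were called. Of these, 7 were higher in lung (19.4%, against 9.17% of genes), with Itgam (edgeR adjusted p = 0.00346), Itgb2 (0.0305) and Itgb6 (0.026) joining the 4 named. Among the 5 called lower (13.9%, against 2.73% of genes) were Lama5 (-1.97, adjusted p = 0.00629), Lamc1 (-1.62, 0.0217), Itgb4 (-1.41, 0.0147) and Itgav (-1.37, 0.0327). The deviations of sections of the same mouse did not go together (correlation -0.308 over genes), so the block, like each ratio within a mouse, rests on the mouse numbers in the labels alone. In mouse A the log2 CPM ratio of lung over tumour was -3.10 for Lama5, -2.69 for Itgb4 and -2.51 for Itgav, and in mouse B it was -1.42, -0.73 and -0.82.

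**Figure D2:**
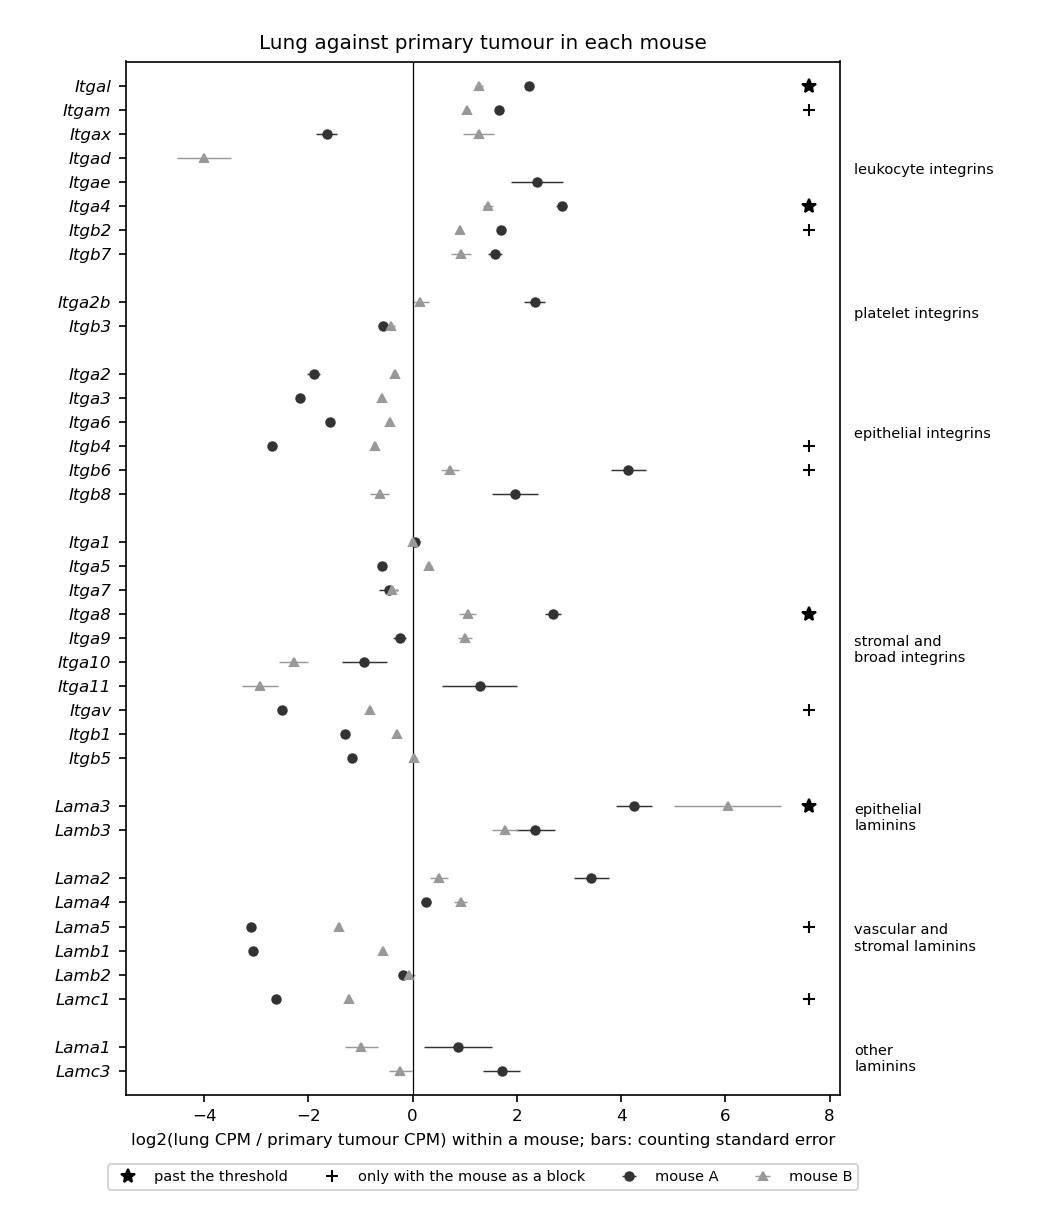
log2 ratio of lung over primary tumour CPM for 36 chains in mouse A and mouse B, with bars for the counting standard error. Stars mark the 4 chains called without the mouse block (Itgal, Itga4, Itga8, Lama3) and plus signs those called only with it. For the chains called in either fit both mice lie on the same side of 0, mostly further out in mouse A.

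Within the lungs, the 25% of spots richest in carcinoma markers were set against the 25% richest in alveolar markers, to ask whether the chains follow the metastatic foci. Spots in both groups, 80 in lung A and 18 in lung B, were left out, and the sums held 344 and 344 spots in lung A and 677 and 677 in lung B. In lung B the carcinoma-rich spots had a summed carcinoma list of 1292 CPM against 294 CPM, but in lung A of 359 CPM against 42.8 CPM, and 977 of the 1697 spots of lung A had no carcinoma UMI. Lung A thus held little carcinoma signal to rank on, and Sfn and Fgfbp1, 2 of the 6 markers found, were higher in lung A (8.9 and 20.7 CPM) than in either tumour (3.03 and 5.97 CPM, 7.32 and 10.0 CPM). Median depth was 5772 against 6964 UMIs in lung A and 15937 against 8430 UMIs in lung B, the neutrophil list was at 68698 against 81587 CPM and at 7054 against 57967 CPM, and the part of either in the results was not tested.

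Itgb4 had the largest log2 fold toward the carcinoma-rich spots among the 33 tested chains. It was at 73.8 against 13.3 CPM in lung A and at 173 against 55.2 CPM in lung B (log2 fold 1.89, SE 0.32, edgeR adjusted p = 0.35). Lamb1 was at 117 against 65.5 CPM and at 501 against 172 CPM, Lama5 at 153 against 80.0 CPM and at 372 against 150 CPM, and Lamc1 at 115 against 81.7 CPM and at 351 against 190 CPM. Itga3 followed with 194 against 118 CPM and 490 against 210 CPM, and Itgav with 83.5 against 54.3 CPM and 237 against 101 CPM. These chains were higher in the carcinoma-rich spots of both lungs.

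Of the 7 leukocyte chains tested, 5 (Itgal, Itgam, Itga4, Itgb2, Itgb7) lay on the alveolar-rich side in both lungs, with larger differences in lung B, and the other 2 had no common direction. Itgam was at 261 against 313 CPM in lung A and at 55.6 against 268 CPM in lung B, Itgal at 175 against 202 CPM and at 29.4 against 137 CPM, and Itga4 at 117 against 145 CPM and at 19.8 against 81.5 CPM. The leukocyte share of integrin UMIs was 49.8% in carcinoma-rich and 59.3% in alveolar-rich spots of lung A, and 15.5% and 45.5% in lung B. Itga8 (47.7 against 50.5 CPM, 4.43 against 29.7 CPM), Lama3 (27.8 against 29.9 CPM, 5.31 against 20.6 CPM) and Itgb6 (24.7 against 25.7 CPM, 7.71 against 18.2 CPM) showed the same order.

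None of these differences passed the test. edgeR called 0 of 33 chains and 0% of all 12382 genes in either direction, with 7 chains at an unadjusted p under 0.05 and 1 called by DESeq2. Of these genes 1612 were at an unadjusted p under 0.05, and DESeq2 called 22 higher and 6 lower. In both lungs 13 chains (39.4%) were higher in carcinoma-rich spots, against 44.3% of genes, and 14 (42.4%) were lower, against 27.6%.

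The 25% of spots richest and poorest in 6 marker lists (carcinoma, neutrophil, macrophage, endothelial, fibroblast, smooth muscle) were compared in all 4 sections. Spots of equal marker share were ordered by depth, so that where more spots lacked a marker UMI than the poorest 25% could hold, the poorest spots were the shallowest of these. This was so for carcinoma in lung A (977 spots without a UMI, 424 taken), macrophage in primary tumour B (899, 593 taken), and in primary tumours A and B for endothelial (910 and 914), fibroblast (852 and 1118) and smooth muscle (1280 and 1212), with 622 and 593 taken. For the neutrophil list, edgeR called 0 of 32 chains and 0% of 12210 genes, with 14 chains at an unadjusted p under 0.05 and 6 called by DESeq2. Over the 12210 genes 2652 were at an unadjusted p under 0.05, and DESeq2 called 704 higher and 228 lower. An excess of chains was not tested. In all 4 sections 5 chains (15.6%) were higher, against 10.4% of genes, and 13 (40.6%) were lower, against 26.8%. Itgam was at 153 against 81.3 CPM in primary tumour A, 186 against 42.2 CPM in primary tumour B, 401 against 204 CPM in lung A and 373 against 47.2 CPM in lung B (log2 fold 1.93, SE 0.39, edgeR adjusted p = 0.109). Itgal was at 46.7 against 45.9, 76.5 against 22.2, 249 against 152 and 192 against 25.2 CPM. Itgb2, Itgb7 and Itga2b were also higher in every section, but Itga2b was nearly level in lung A, at 27.8 against 27.2 CPM. In primary tumour A Itga2b held 14 against 13 UMIs, and Itgb7 was at 12.3 against 11.2 CPM on 19 and 36 UMIs. Both Itga2b and Itgb7 were under background in primary tumour B. Itga4, in contrast, did not have 1 direction.

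In the same neutrophil-rich spots Itga3, Itga6 and Itgb4, 3 of the 6 epithelial chains, and Itgav and the 3 laminin-511 chains were lower in every section. Itgb4 was at 178 against 259, 94.4 against 272, 13.6 against 77.7 and 27.1 against 171 CPM (log2 fold -1.61, SE 0.33, edgeR adjusted p = 0.109). Lamb1 was at 509 against 593, 321 against 553, 35.6 against 131 and 97.6 against 505 CPM. The contrast was small in primary tumour A and several-fold in lung B. The leukocyte share of integrin UMIs in neutrophil-rich and neutrophil-poor spots was 17.8% and 12.8%, 29.0% and 10.8%, 66.9% and 44.7%, and 60.5% and 14.3%. The carcinoma list was lower in the neutrophil-rich spots of 3 sections, at 1260 against 1997 CPM in primary tumour B, 58.0 against 225 CPM in lung A and 193 against 1202 CPM in lung B, and level in primary tumour A at 1549 against 1543 CPM. Median depth was 7350 against 15946 UMIs in lung B and 1635 against 675 UMIs in primary tumour A, and the part of the carcinoma list or of depth was not tested.

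Between spots rich and poor in carcinoma markers, edgeR called 0 of 32 chains, against 0.00835% of 11981 genes in either direction together, with 16 chains at an unadjusted p under 0.05 and 6 called by DESeq2. The 0.00835% is for the edgeR call alone. Of these genes 2598 were at an unadjusted p under 0.05, and DESeq2 called 157 higher and 699 lower. An excess of chains was not tested. In all 4 sections 9 chains (28.1%) were higher, against 16.8% of genes, and 6 (18.8%) were lower, against 13.4%. Higher in each were Itga1, Itga2, Itga3, Itga5, Itgav, Itgb5, Lama5, Lamb1 and Lamc1. Itga1 was nearly level outside primary tumour B, at 107.6 against 107.4, 109.8 against 51.9, 104.9 against 104.4 and 94.2 against 90.5 CPM. Lamb1 was at 593 against 515, 534 against 279, 110 against 57.1 and 497 against 123 CPM (log2 fold 0.97, SE 0.28, edgeR adjusted p = 0.16). Itgb6 was lower in each, at 0.358 against 5.16, 2.76 against 25.9, 28.5 against 35.5 and 7.92 against 15.7 CPM (log2 fold -1.70, SE 0.52, edgeR adjusted p = 0.16), although it is grouped with the epithelial chains. It was under background in both tumours, with 1 against 5 UMIs in primary tumour A, and its log2 ratio was -3.85 and -3.23 in the tumours and -0.32 and -0.99 in the lungs. Itgal, Itgam, Itga4, Itgb7 and Itga7 were the others lower in each, but Itgb7 and Itga7 were under background in primary tumour B. The carcinoma-rich spots were deeper in every section, from 1298 against 506.5 UMIs in primary tumour A to 15689 against 6882 UMIs in lung B at the median, and the part of depth was not tested.

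Spots rich and poor in macrophage markers were compared next. edgeR called 0 of 32 chains, against 0.00822% of 12165 genes, with 9 chains at an unadjusted p under 0.05 and 1 called by DESeq2. Of these genes 1920 were at an unadjusted p under 0.05, and DESeq2 called 80 higher and 160 lower. In all 4 sections 6 chains (18.8%) were higher in macrophage-rich spots, against 14.3% of genes, and 0 were lower, against 7.87%. The 6 were Itga6, Itgb4, Itgav, Itgb1, Itgb5 and Lama4, with Itgb4 at 243 against 176, 280 against 75.6, 64.5 against 19.4 and 152 against 58.1 CPM (log2 fold 1.26, SE 0.27, edgeR adjusted p = 0.175). In primary tumour A, Itga6, Itgav and Itgb1 were nearly level, at 260 against 255, 326 against 322 and 590 against 580 CPM. No chain of the beta2 family, which macrophages also use, had 1 direction in all sections. In the lungs the macrophage-rich spots also held more carcinoma signal, 179 against 88.6 CPM in lung A and 1003 against 299.8 CPM in lung B, and median depth was 15377 against 6822 UMIs in lung B and 3921 against 707.5 UMIs in primary tumour A, and the part of either was not tested.

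Vessel and connective tissue lists were compared in the same way. Between endothelial-rich and endothelial-poor spots edgeR called 0 of 33 chains and 0% of 12412 genes, with 2 chains at an unadjusted p under 0.05 and 0 called by DESeq2. Of these genes 932 were at an unadjusted p under 0.05, and DESeq2 called 4 higher and 6 lower. Itgb2 and Lama3 (6.06%, against 4.72% of genes) were higher in all sections and Itgb8 (3.03%, against 14.1%) lower, but Lama3 rested on 2 against 0 and 1 against 0 UMIs in the tumours, where both it and Itgb8 were under background. Median depth was 3299.5 against 409 UMIs in primary tumour A and 7798 against 12136 UMIs in lung B, and its part was not tested. The fibroblast list gave the 1 call among these comparisons: Itga4 fell by 1.1 in fibroblast-rich spots (log2, SE 0.22, edgeR adjusted p = 0.0483), at 16.8 against 22.1, 16.5 against 48.9, 102 against 144 and 33.1 against 86.4 CPM. That is 1 of 32 chains (3.12%) called lower, against 0.49% of 12448 genes, and 0 called higher, against 0.289%, while 14 chains were at an unadjusted p under 0.05 and DESeq2 called 2. Both percentages of genes are for the edgeR call alone. Of these genes 1859 were at an unadjusted p under 0.05, and DESeq2 called 106 higher and 178 lower. An excess of chains was not tested. Itga4 held 6 UMIs in the fibroblast-poor spots of primary tumour A, and its 16.5 CPM in primary tumour B was under background. The call of Itga4 was lost when the primary tumour of either mouse or lung B was left out, with no replicate block, in spots with at least 1000 UMIs and with larger groups of spots. The neutrophil list was lower in the fibroblast-rich spots of every section, for instance at 17212 against 54417 CPM in lung B, and its part was not tested.

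In the fibroblast-rich spots 10 chains (31.2%) were higher in all sections, against 13.9% of genes, and 4 (12.5%) were lower, against 8.67%. Lama4 was at 39.7 against 18.4, 14.5 against 10.6, 55.4 against 29.9 and 35.9 against 20.7 CPM (log2 fold 0.72, SE 0.20, edgeR adjusted p = 0.107). Lama4 was under background in primary tumour B over the whole section, and its fibroblast-poor spots held 5 UMIs in primary tumour A and 8 in primary tumour B, and its smooth muscle-poor spots 4 and 7. Lamb1 was at 582 against 445, 492 against 237, 101 against 52.8 and 405 against 215 CPM (log2 fold 0.80, SE 0.20, edgeR adjusted p = 0.0788). Beside the smooth muscle list 7 chains (21.9%) were higher in all sections, against 11.7% of genes, and Itgax alone (3.12%) was lower, against 7.73%. Lama4, a chain of vessel and muscle basement membranes, was again among them, at 26.8 against 16.3, 13.9 against 9.35, 53.1 against 28.0 and 36.8 against 20.5 CPM (log2 fold 0.75, SE 0.18, edgeR adjusted p = 0.109). edgeR called 0 of these 32 chains, against 0.168% of 12476 genes higher and 0.0481% lower, with 10 chains at an unadjusted p under 0.05 and 0 called by DESeq2. Of these genes 1277 were at an unadjusted p under 0.05, and DESeq2 called 15 higher and 7 lower. The rich spots of primary tumour A were much deeper than the poor ones, with medians of 5335.5 against 390.0 UMIs for smooth muscle and 4024.5 against 412.5 UMIs for fibroblasts, and the part of depth was not tested.

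**Figure D3:**
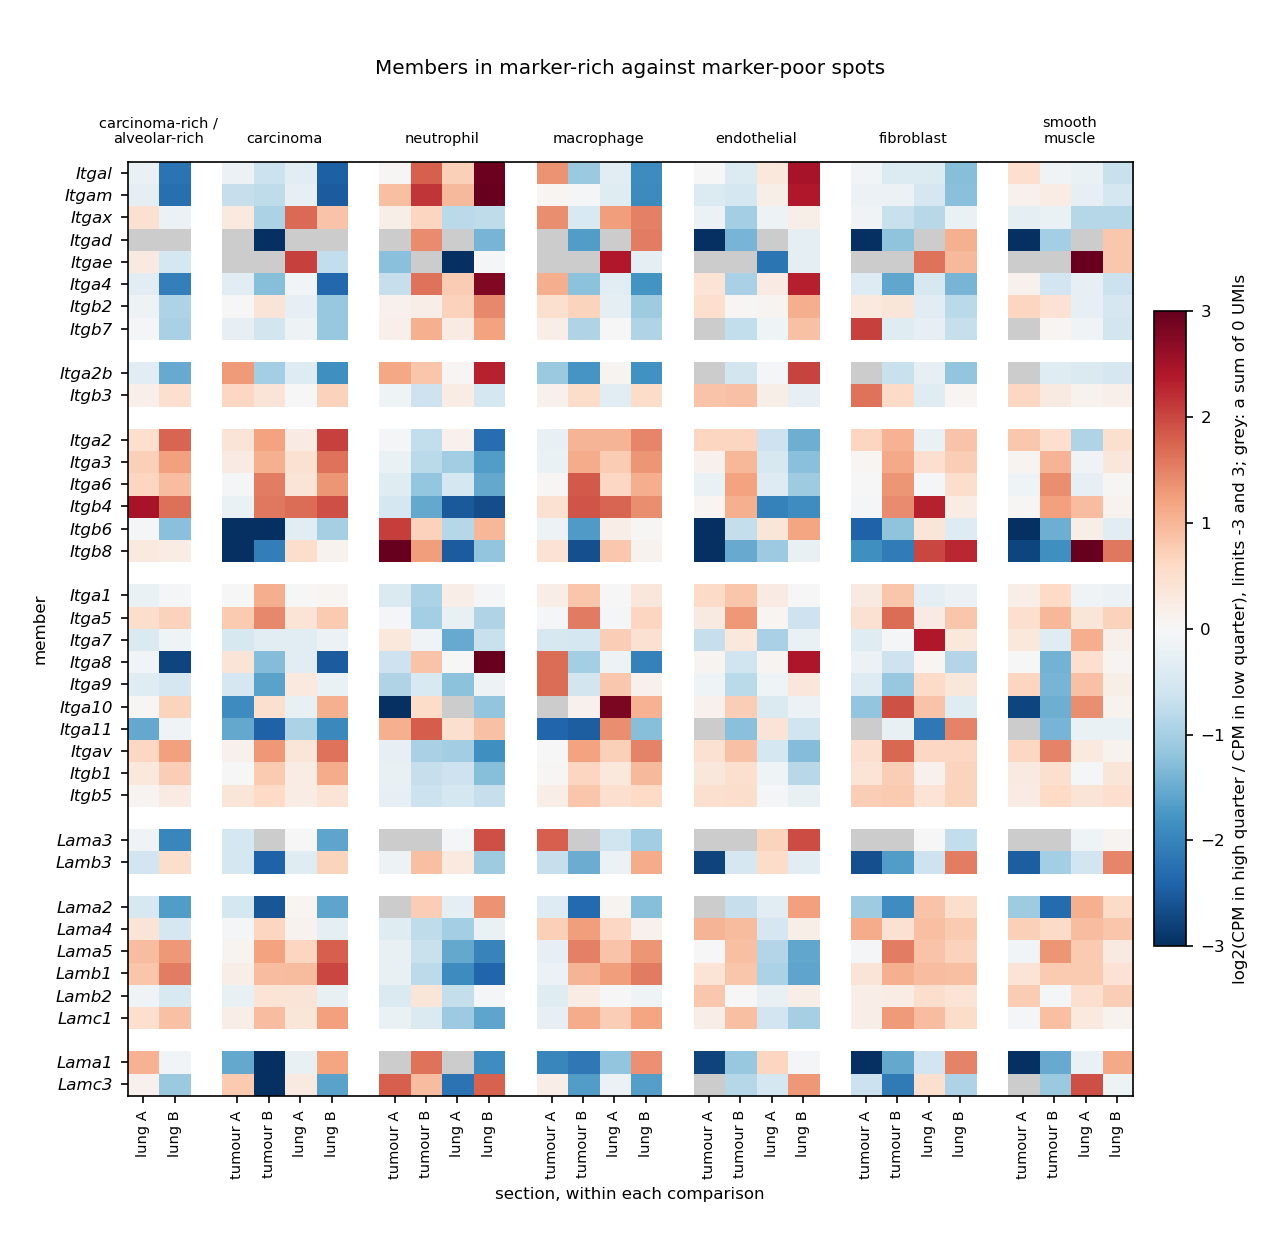
Heat map of the log2 ratio of CPM between marker-rich and marker-poor spots, with chains as rows and each comparison and section as a column, colours limited at -3 and 3 and grey where a sum held 0 UMIs. Itgam and Itgal are above 0 in every neutrophil column, Itgb4, Lama5 and Lamb1 below 0 there, and many of the strongest colours stand in the columns of lung B.

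Neighbouring spots were pooled into tiles of 6 by 12 array positions with at least 18 kept spots, to see where in the tissue the leukocyte share was high. The share ran from 2.86 to 36.8% (median 14.2%) over 72 tiles of primary tumour A, from 9.49 to 38.3% (median 21.0%) over 65 tiles of primary tumour B, from 26.9 to 70.5% (median 58.9%) over 48 tiles of lung A and from 10.2 to 66.2% (median 38.3%) over 75 tiles of lung B. Lung B had the widest range. In the tile of lung A with the lowest share, the carcinoma list was at 273 CPM and the vascular and stromal laminin chains summed to 1252 CPM.

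**Figure D4:**
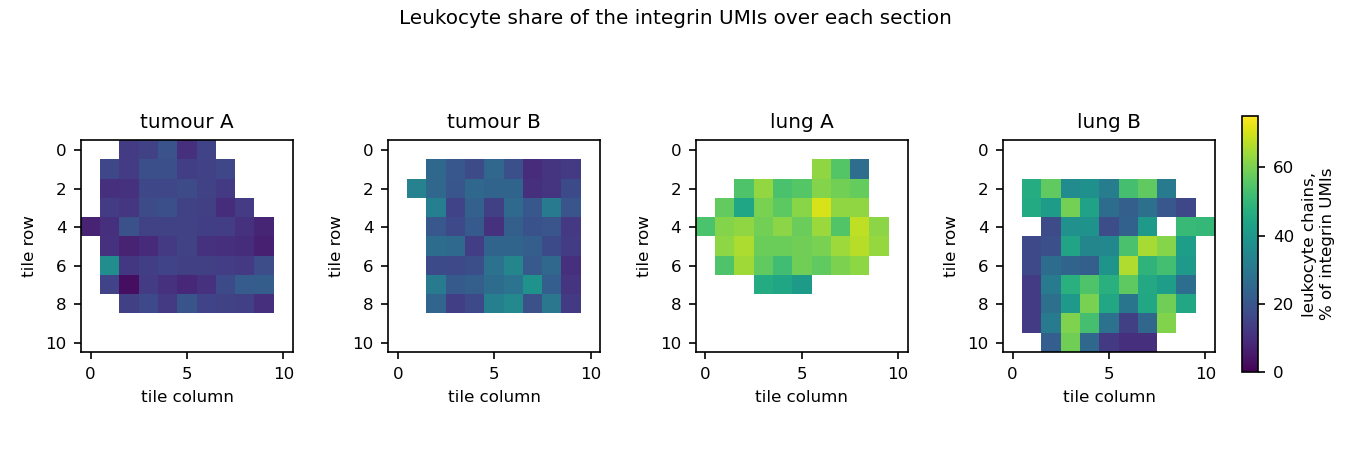
Share of integrin UMIs on the 8 leukocyte chains in each tile, in percent on 1 colour scale, with 1 panel for each section laid out by array position. Lung A is high almost throughout, lung B holds adjoining areas of low and of high share, and both primary tumours stay under 40%, with highest tiles at 36.8 and 38.3%.

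Across tiles the leukocyte chains followed the neutrophil list, most closely in the lungs. Spearman's rho between the summed leukocyte chains and the neutrophil list was 0.134, 0.597, 0.790 and 0.982 over the 72, 65, 48 and 75 tiles. The epithelial chains had a rho with the carcinoma list of 0.165, 0.692, 0.709 and 0.941, and the vascular and stromal laminin chains of 0.167, 0.736, 0.628 and 0.908. With the macrophage list rho was 0.188, -0.0663, 0.676 and 0.881 for the epithelial chains and -0.264, -0.213, 0.668 and 0.881 for these laminin chains. Leukocyte chains had a rho with the endothelial list of 0.107, -0.365, 0.139 and 0.860. The part of each list was not tested. In the lungs the leukocyte chains ran against the carcinoma list (rho -0.689 and -0.892), while in the tumours rho was -0.0672 and 0.344. These values describe tiles of 1 section that share its library, so no p is given. Tiles differed in depth, from 5726 to 960522 UMIs in primary tumour A and from 28368 to 796381 in primary tumour B. In lung A they held 35648 to 389017 UMIs and in lung B 60889 to 1023782, and the part of depth was not tested.

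**Figure D5:**
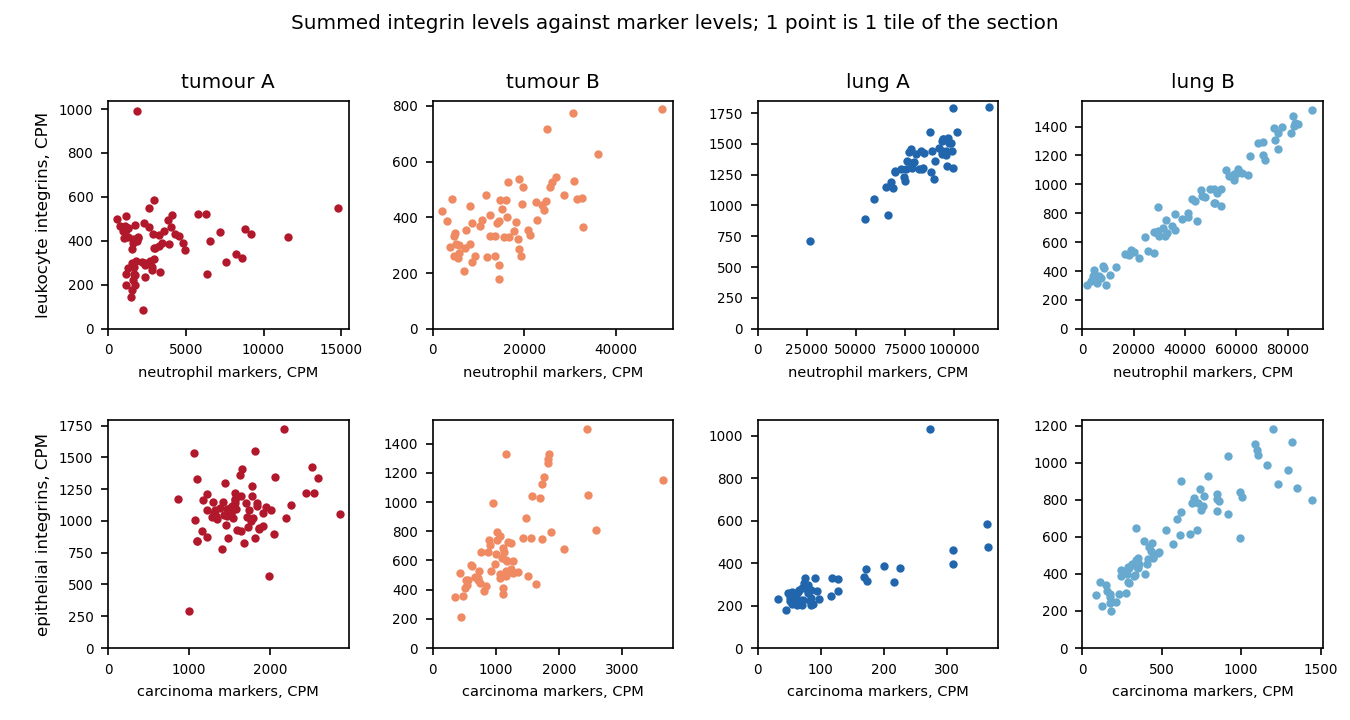
Summed CPM of the leukocyte chains against that of the neutrophil list, and of the epithelial chains against that of the carcinoma list, with 1 point for each tile and 1 colour for each section. The lung B tiles form a narrow rising band in both panels (rho 0.982 and 0.941), and the tiles of primary tumour A show little relation (rho 0.134 and 0.165).

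Likeness of pattern between single chains was measured as the median over sections of Spearman's rho across tiles, for all 666 pairs, leaving out sections where a chain was at 0 (lung A for Itgad, primary tumour B for Itgae). The 3 pairs of the laminin-511 chains ranked 1, 3 and 4: Lamb1 with Lamc1 had 0.321, 0.774, 0.661 and 0.877, Lama5 with Lamc1 had 0.275, 0.864, 0.577 and 0.792, and Lama5 with Lamb1 had 0.310, 0.728, 0.615 and 0.887. The second was Itgav with Lamb1, which form no complex, with a median of 0.699. Among integrin partners, Itgam with Itgb2 had 0.208, 0.265, 0.505 and 0.930, Itga6 with Itgb4 had 0.225, 0.359, 0.0370 and 0.717, and Itga4 with Itgb1 had a median of -0.37. Over the 38 pairs that can share a complex the median was 0.107, and over all others 0.0195.

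Other genes of the adhesion pathway were counted from 3 lists of ligands and adaptors. Between lungs and tumours edgeR called 3 of 18 tested basement membrane and soluble ligand genes higher in lung and 0 lower, 2 of 10 cell-bound ligands higher and 0 lower, and 4 of 28 adaptors higher and 0 lower, beside the 6.31% and 1.15% of all genes. Bcam, a laminin alpha5 receptor of the immunoglobulin family, was at 5.91, 8.45, 152 and 77.5 CPM (log2 fold 4.36, SE 0.52, edgeR adjusted p = 0.00419), the reverse of Lama5. Icam2, a ligand of Itgal on endothelial cells, was at 8.05, 8.45, 81.2 and 30.6 CPM (log2 fold 3.12, adjusted p = 0.0131), higher in both lungs, as the endothelial list was at 556, 417, 2723 and 1412 CPM, and the part of that list was not tested. Cdh1, the ligand of Itgae, had a log2 fold of 3.05 (adjusted p = 0.00902), and Icam1 of 1.75 (adjusted p = 0.0647). The alveolar list, at 27.9, 76.0, 13761 and 7777 CPM, was higher in the lungs like Bcam and Cdh1, and its part was not tested. Tns1, a tensin that links integrin tails to actin, was at 23.8, 21.9, 888 and 490.0 CPM (log2 fold 5.25, adjusted p = 0.0032), and Lims2 and Parvg had folds of 4.12 and 2.55. In fibroblast-rich spots Tnc (1.06, adjusted p = 0.0419) and Thy1 (1.27, adjusted p = 0.0444) were called higher and Parvg lower (-1.0, adjusted p = 0.0483), and no other gene of these lists was called in the comparisons within sections.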

How the data were processed

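The deposited matrices hold raw counts, UMIs per gene and spot, which the authors made from probe-based Visium libraries of formalin-fixed, paraffin-embedded sections. The submitters' processing notes and the file headers name Space Ranger 2.0.0 and mm10. Spots under tissue with over 200 detected genes were kept, and counts were summed over spots to 1 value per section, or to 1 value per marker-rich and marker-poor group of spots, since spots are not replicates. Barcodes mark slide positions, so that 1341 of 3401 are in all 4 sections by design. CPM is the count per 1000000 UMIs of the same sum, and Poisson and Clopper-Pearson intervals of 95% cover counting error only. All genes were fitted with edgeR 4.0.16 (quasi-likelihood test, TMM, filterByExpr, Benjamini-Hochberg, threshold 0.05) in R 4.3.3, and DESeq2 1.42.0 was an alternative. Comparisons within sections had the section or mouse as a block. P-values measure the spread between sections only. Sums and figures were made in Python 3.11.15, and the fit was tested on simulated data. The deposited images were not used.

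The chains were taken by symbol alone, but the choice of these families, their roles, the marker lists and the pathway lists was made with earlier results of these data known. Every chain was given its level in each section, except 1 that is not reported here. In each comparison values were given for the chains past the threshold, at most 10 by absolute log2 fold, and for chains of the complexes it bears on, and for pathway lists those of the 3 genes with the smallest adjusted p. Markers in the richest and poorest 25% of spots are no members of either family. The tumour and lung of a mouse come from 1 animal by the labels, and the deviations of such pairs from their group means had a correlation of -0.308 over 15267 genes, and of 0.734 between the 2 classes of spots of the same lung over 12382 genes. Promoter windows came from RefSeq tables for GRCm38.p6, and among the chains with no window given were Itga6, Itga7, Itgad, Itgae, Itgal, Itgb2, Itgb3, Itgb4, Lama1, Lama3, Lama4, Lamc1 and Lamc3.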

Additional observations from a re-analysis of the deposited data

Results flagged for a closer look

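The difference between smooth muscle-rich and smooth muscle-poor spots was not the same in lungs and tumours for 7 of 32 chains, by the class by tissue term of an edgeR fit over 8 sums, which called 1614 of 12476 genes in all. In the other 5 comparisons over all 4 sections this edgeR term called 0 chains, with 1 to 11 at an unadjusted p under 0.05, beside 23 of 12448 genes for the fibroblast list and 0 genes for the other lists, and it was not fitted for the carcinoma-rich and alveolar-rich spots of the lungs alone. The log2 fold in the lungs less that in the tumours was -0.99 for Itga6 (adjusted p = 0.0209), -1.18 for Itgav (adjusted p = 0.00201), -0.83 for Itgam (adjusted p = 0.025), -1.16 for Itgb2 (adjusted p = 0.00129) and -0.83 for Itga1 (adjusted p = 0.0321). It was 2.67 for Lama2 (adjusted p = 0.0026) and 3.84 for Itgb8 (adjusted p = 0.00056). Itgb2 was higher in the rich spots of both tumours, at 205 against 130.0 CPM and 192 against 142 CPM, and lower in those of both lungs, at 583 against 696 CPM and 348 against 497 CPM. Itgb8 had the opposite order, at 1.22 against 8.16 CPM and 13.4 against 48.1 CPM in the tumours and at 12 against 0.812 CPM and 9.34 against 3.12 CPM in the lungs. These rest on few counts, with 5 against 2 UMIs of Itgb8 in primary tumour A and 34 against 2 UMIs in lung A. Lama2 held 8 against 1 UMIs in primary tumour A. Itga6 differed mainly in primary tumour B, at 210.9 against 80.1 CPM, beside 251 against 273 CPM in primary tumour A. Over whole sections Lama2 and Itgb8 are under the background of both primary tumours, and the poor spots of primary tumour A had a median of 390.0 UMIs. The part of either was not tested.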

How the results depend on the processing

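Of 90 alternative values of the counts and shares that answer a comparison, 55 lay within 1.5 times or the interval of the reported value and 35 did not, and of 1134 alternative folds of single chains 1005 kept direction and side of the threshold, 104 crossed to a call, 12 lost one and 13 changed sign. The leukocyte shares moved by less than their intervals. Between lung and tumour 4 chains were called, 10 with DESeq2, 10 with no filter on low counts, 12 with the mouse as a replicate block and 2 in spots with at least 1000 UMIs, and leaving out 1 section gave 2 to 15. All 4 were shared with the calls of DESeq2, no filter and the block, and Itga4 was called under every alternative. Over all genes the split was 963 higher and 176 lower in edgeR and 1436 and 1208 in DESeq2. Because the same-mouse sections deviated against each other, the crossed replicate block was added after seeing the data and called 17 chains. Over all 15267 genes this crossed block called 1818 higher and 747 lower. An excess of chains was not tested, for this count or for those with 1 section left out.

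For carcinoma-rich against alveolar-rich lung spots, where 0 were called, DESeq2 called 1 and no filter 7. No fit without a lung was run for it, since 1 mouse leaves no residual degrees of freedom. Against the carcinoma list DESeq2 called 6, no filter 3 and equal marker weights 1, against the neutrophil list DESeq2 and no filter 6 each, and against the macrophage list 1 each. Leaving out 1 section gave 0 to 8 (carcinoma), 0 to 5 (neutrophil), 0 to 2 (macrophage), 0 to 2 (fibroblast), 0 to 5 (smooth muscle) and 0 (endothelial). Against the carcinoma list 5 were called without primary tumour A, 8 without lung A and 2 without lung B, against the neutrophil list 5, 1 and 2, against the macrophage list 2, 0 and 1, and against the smooth muscle list 5 without primary tumour B alone. Over all genes these fits called 228 higher and 679 lower, 109 and 1617, and 37 and 125 (carcinoma). They called 606 and 255, 390 and 7, and 384 and 75 (neutrophil). For macrophage they called 104 and 166, 17 and 227, and 29 and 35, and for smooth muscle 592 and 306. An excess of chains was not tested. Where 1 section of a tissue was left out, the lone section of that tissue is assumed to vary like the others. For fibroblast-rich spots, with 1 called, DESeq2 called 2, no filter 7, and 0 were called with no replicate block, in spots with at least 1000 UMIs or with larger groups of spots, which ended the call of Itga4. The cause was not tested in any of these.

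No fold that changed sign had been called. Between lung and tumour, leaving out 1 section gave a log2 fold of Itgb3 from -0.2614 to 0.0527, with 0.0070 without lung B, of Itga2 from -1.3544 to 0.0833, of Itga7 from -0.1257 to 0.2145 and of Lamb2 from -0.2066 to 0.8263, and Itga7 was at 0.0383 with no filter. In the lung spots Itgb8 was at -0.0237 and Itgb5 at -0.0264 with smaller groups of spots, and Itgb5 at -0.0025 with equal marker weights. Against the carcinoma list Itga1 ran from -0.0662, without primary tumour B, to 0.3557, and against the neutrophil list Lama4 was at 0.0495 with equal weights. The receptor-gene background, 19.0 CPM in primary tumour B against 0.539 CPM in lung A at like totals of UMIs, limits the low chains of that tumour, where 18 of 37 were at or under it.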
